A study of Homo sapiens with 4 samples.

Results

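Intergenic OGA regions far from genes were taken from CUT&Tag of O-GlcNAcase (OGA) in H9 human embryonic stem cells. A region counted as distal when the authors had annotated it as distal intergenic and its assigned start site lay more than 25 kb away. By this rule 623 of 8977 distinct control regions were distal (6.94%, Wilson 95% interval 6.43 to 7.48), and they are called distal regions here. H9, an established human embryonic stem cell line, was grown as naive cells in PXGL, a medium with the inhibitors PD0325901 and XAV939, a protein kinase C inhibitor and human LIF, over a layer of mouse embryonic fibroblasts (MEF). The control libraries (2) came from cells labelled WT and the others (2) from cells labelled OGA knockdown, named shOGA. Both groups carried the label of no treatment, and the labels do not say whether the replicates were separate cultures, nor how many clones were used.

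OGA removes single O-linked N-acetylglucosamine sugars from serine and threonine residues of nuclear and cytosolic proteins, and OGT adds them. Many transcription factors and chromatin proteins carry this sugar. DNA far from start sites holds, among much else, enhancers, which can lie far from the gene they act on and often occur in groups. CUT&Tag cuts and tags DNA near an antibody-bound protein, so a region marks where OGA antibody signal was called and does not show that OGA acts there.

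Each deposited list merged both replicates of its group, and every distal region named at least 1 numbered peak of each. The lists hold no count, signal or score, so sequencing depth is unknown, no region can be tested across libraries, and the values below describe the lists. Intervals cover counting error only and were not adjusted for the 14 differences in shares that were computed. The cell label was looked up at 4 pluripotency genes, POU5F1, SOX2, SALL4 and LIN28A, and all 4 had a control promoter region. Of 18 fibroblast marker genes, looked up because of the feeder layer, 1 had a control promoter region and 0 had a distal region. The feeders were mouse cells and the regions lie on a human build, so these counts cannot show how much feeder DNA was present. A region is no measure of expression.

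For 3 protein-coding genes, EEF1A1, FZD5 and PTMA, groups of at least 3 distal regions occurred together with a control region within 1 kb of a start site of the same gene and with a single promoter in the RefSeq promoter table. Their promoters show the start-site end of these loci. The sequences are the 250 bases before the RefSeq start (GRCh38.p14), printed 5′ to 3′ on the gene's strand, with matches to GGGCGG or CCAAT on either strand in capitals. The windows are chr6:73521033-73521282 on the minus strand for EEF1A1, chr2:207769907-207770156 on the minus strand for FZD5 and chr2:231708275-231708524 on the plus strand for PTMA. The EEF1A1 window lay inside the control region there and the FZD5 window partly inside. The PTMA window lay outside the PTMA control region (231706109 to 231707882).
EEF1A1: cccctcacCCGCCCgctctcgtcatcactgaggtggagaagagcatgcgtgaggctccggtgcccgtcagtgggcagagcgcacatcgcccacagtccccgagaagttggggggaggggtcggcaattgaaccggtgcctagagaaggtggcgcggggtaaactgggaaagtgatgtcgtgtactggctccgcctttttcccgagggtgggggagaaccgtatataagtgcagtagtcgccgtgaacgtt
FZD5: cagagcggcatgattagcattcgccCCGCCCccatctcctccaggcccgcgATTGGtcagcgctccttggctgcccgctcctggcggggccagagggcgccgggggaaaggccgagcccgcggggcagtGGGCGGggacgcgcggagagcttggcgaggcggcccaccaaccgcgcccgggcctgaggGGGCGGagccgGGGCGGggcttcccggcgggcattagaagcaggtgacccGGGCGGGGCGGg
PTMA: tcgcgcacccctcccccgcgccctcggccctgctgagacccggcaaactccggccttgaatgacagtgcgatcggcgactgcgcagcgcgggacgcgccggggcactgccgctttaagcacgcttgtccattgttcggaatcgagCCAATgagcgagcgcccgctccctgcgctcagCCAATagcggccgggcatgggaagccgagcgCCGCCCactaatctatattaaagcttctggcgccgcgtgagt
FZD5 held 6 matches to the GC box GGGCGG, counting matches that overlap each other, and 1 to CCAAT. EEF1A1 held 1 GC box and 0 CCAAT matches, and PTMA 1 GC box and 2 CCAAT matches. Among all 35116 RefSeq promoter windows of that length, 42.6% held a GC box and 32.0% a CCAAT match. The TATA box letters TATAAA (10.7% of all windows), the octamer ATTTGCAT (1.63%) and the E box CACGTG (6.34%), each on either strand, were in 0 of the 3 windows. Only exact letters were counted, so the similar stretch tatataag near the end of the EEF1A1 window was not a match. A match is a description of these letters and not a binding site. Sequences of the distal regions themselves were not used here.

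Distal regions were as wide as regions elsewhere in the control list. Their median width was 1581 bp (interquartile range 1251 to 2086, extremes 505 and 5550), against 1603 bp for the 1187 intergenic regions within 25 kb and 1562 bp for the 4212 promoter regions. Together they covered 1.09 Mb. The widest distal region lay on chromosome 1 at 31108520 to 31114069 (5550 bp, GRCh38.p13), at -40998 bp from the start site of LOC107984935 (negative distances are upstream). The next were assigned to MIR5708 (5116 bp), to the serine/threonine kinase gene PIM1 (4389 bp), to PMAIP1, which encodes the pro-apoptotic protein NOXA (4345 bp), to the co-chaperone gene DNAJB6 (4290 bp) and to PHF21B (4276 bp). NDUFB1P1, LOC107986881, OR7E163P and PTMA, which encodes the nuclear protein prothymosin alpha, completed the 10 widest with 3984, 3959, 3884 and 3868 bp.

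The median distance to the assigned start site was 42613 bp (interquartile range 31837 to 67365). Most distal regions were near the lower limit, since 385 of 623 (61.8%) lay between 25 and 50 kb, 156 between 50 and 100 kb, 60 between 100 and 200 kb and 22 beyond 200 kb. The 5 farthest were 4 regions assigned to EMB, which encodes the membrane glycoprotein embigin, at 779411 to 840902 bp on chromosome 5, and 1 region assigned to the metalloprotease gene TLL1 at 558918 bp on chromosome 4. Just inside the limit were regions at LINC01525 (-25089 bp), the phosphatase gene PTP4A2 (-25241 bp) and the WNT pathway gene DACT1 (-25350 bp). Just outside it were regions at ASB9P1 (24998 bp), the transferrin receptor gene TFRC (-24997 bp) and LOC105373424 (-24990 bp). Of the distal regions 339 lay upstream of the assigned start (54.4%, 50.5 to 58.3), against 831 of the intergenic regions within 25 kb (70.0%), a difference of -15.6 percentage points (Newcombe 95% interval -20.3 to -10.9). An intergenic region downstream of a start lies past the end of its gene, and gene length was not examined.

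Most distal regions rested on 1 peak in each replicate. In 592 of 623 (95.02%) replicate 1 and replicate 2 each gave exactly 1 numbered peak, against 94.6% of all control regions. Replicate 1 gave 2 peaks in 23 distal regions and replicate 2 in 8. PIM1, PMAIP1 and DNAJB6 had their widest region among the 23, with 2 peaks in replicate 1 and 1 in replicate 2.

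Distal regions were spread unevenly over the chromosomes relative to the other control regions. On the X chromosome 38 of 240 control regions were distal (15.8%, 11.8 to 21.0), against 579 of 8725 on the autosomes (6.64%), a difference of 9.20 percentage points (5.09 to 14.4). Among autosomes the share was highest on chromosome 18, at 18 of 138 (13.04%, 8.41 to 19.7), and it was 11.1% on chromosome 2, where 70 distal regions made the largest number. It was lowest on the gene-dense chromosome 19, where 6 of 595 were distal (1.01%, 0.463 to 2.18), and low on chromosomes 21 (1 of 79, 1.27%), 9 (2.67%), 17 (3.52%) and 11 (3.96%). The widest on X were assigned to LOC105373184 (2503 bp), HAUS1P2 (2459 bp), the RNA-binding protein gene RBMX (2276 bp), AFF2 (2092 bp) and the ubiquitin ligase gene HUWE1 (2057 bp). Others on X were at BCOR, a corepressor of the polycomb system, and at GPC4, a cell-surface glypican with 2 distal regions. Scaffolds outside the assembled chromosomes held 6 distal regions of 10 control regions listed there, and mappability there could not be checked.

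**Figure D1:**
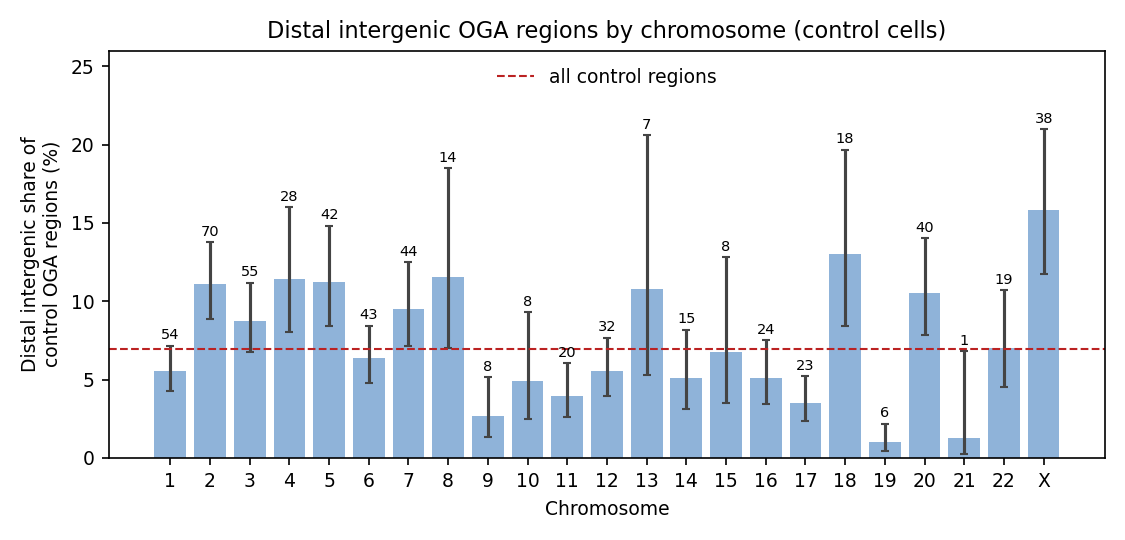
Share of control OGA regions on each chromosome that were distal intergenic (bars, percent, with Wilson 95% intervals), the number of distal regions above each bar, and the share over all control regions as a dashed line (6.94%). The X chromosome stands highest at 15.8% and chromosome 19 lowest at 1.01%.

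A part of the distal regions lay in runs. Within 5 kb of another distal region were 115 of them (18.5%), within 20 kb 195 (31.3%, 27.8 to 35.0) and within 50 kb 221 (35.5%, 31.8 to 39.3). With gaps of up to 20 kb there were 78 runs of at least 2 distal regions and 26 of at least 3, which held 91 regions, while 428 stood alone. Relative to any listed control region, distal regions were the more isolated class. Their median gap to the nearest one was 41352 bp, against 13576 bp for intergenic regions within 25 kb and 19441 bp for promoter regions. The limit of 25 kb itself keeps distal regions away from start sites, and 4212 of 8977 control regions were promoter regions. The larger gap is thus partly set by construction.

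The longest run held 7 distal regions on chromosome 2 between LOC105373928 and PTMA, at 231640429 to 231680955. It spanned 40.5 kb, of which the regions covered 37.3%. The 4 on the LOC105373928 side were 1425, 1472, 2196 and 2479 bp wide, and the 3 on the PTMA side 2543, 3868 and 1118 bp. Replicate 1 had 8 numbered peaks from the first to the last of these regions and replicate 2 also had 8, of which 7 each were listed. PTMA in addition had a control region at -643 bp from a start site, and LOC105373928 had one over a start site.

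Another run lay on chromosome 6 at 37125441 to 37143067, upstream of PIM1, with 5 distal regions in 17.6 kb, 1 of them assigned to RPL12P2. They covered 69.5% of the span. The 4 assigned to PIM1 were 2465, 1857, 1318 and 4389 bp wide at 37739 to 27085 bp from the start site, and PIM1 had 0 control promoter regions. The Wnt receptor gene FZD5 on chromosome 2 had 5 distal regions at 207796513 to 207813197, 1381, 1725, 1735, 1840 and 826 bp wide, 26607 to 42466 bp upstream. All 5 numbered peaks of replicate 1 and all 5 of replicate 2 in that interval were listed. FZD5 also had a control region of 3168 bp at -55 bp from its start site, whose promoter is printed above. PMAIP1 had 4 distal regions on chromosome 18 (1409, 4345, 2551 and 1589 bp) and no other control region.

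The gene with the most distal regions was ZNF217, which encodes a zinc finger protein, with 6. They lay upstream on chromosome 20 at 48760 to 129595 bp from its start, with widths of 1004 to 3048 bp. Beyond them followed 4 distal regions assigned to the pseudogene SUMO1P1. The 10 regions lay between 53657729 and 53921270, an interval of 264 kb, and the 2 genes had 19 control regions in all. EEF1A1, which encodes a translation elongation factor, had 3 distal regions on chromosome 6 (2116, 3615 and 2811 bp) at 37332 to 56765 bp upstream and a region of 2724 bp over its start site. ATF7IP, a partner of the histone methyltransferase SETDB1, had 3 at 97312 to 124198 bp upstream and a region over its start site. LOC105377157 and EMB had 4 distal regions each.

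Over the 26 runs of at least 3 distal regions, 99 of 112 peaks numbered in replicate 1 (88.4%) and 93 of 102 in replicate 2 (91.2%) were part of a listed region. Over the whole control list at most 38.5% and 32.5% of numbered peaks were. These runs were chosen from listed regions, so the first shares were high by construction and no test was made. In 13 of the 26 runs every numbered peak of both replicates was listed.

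**Figure D2:**
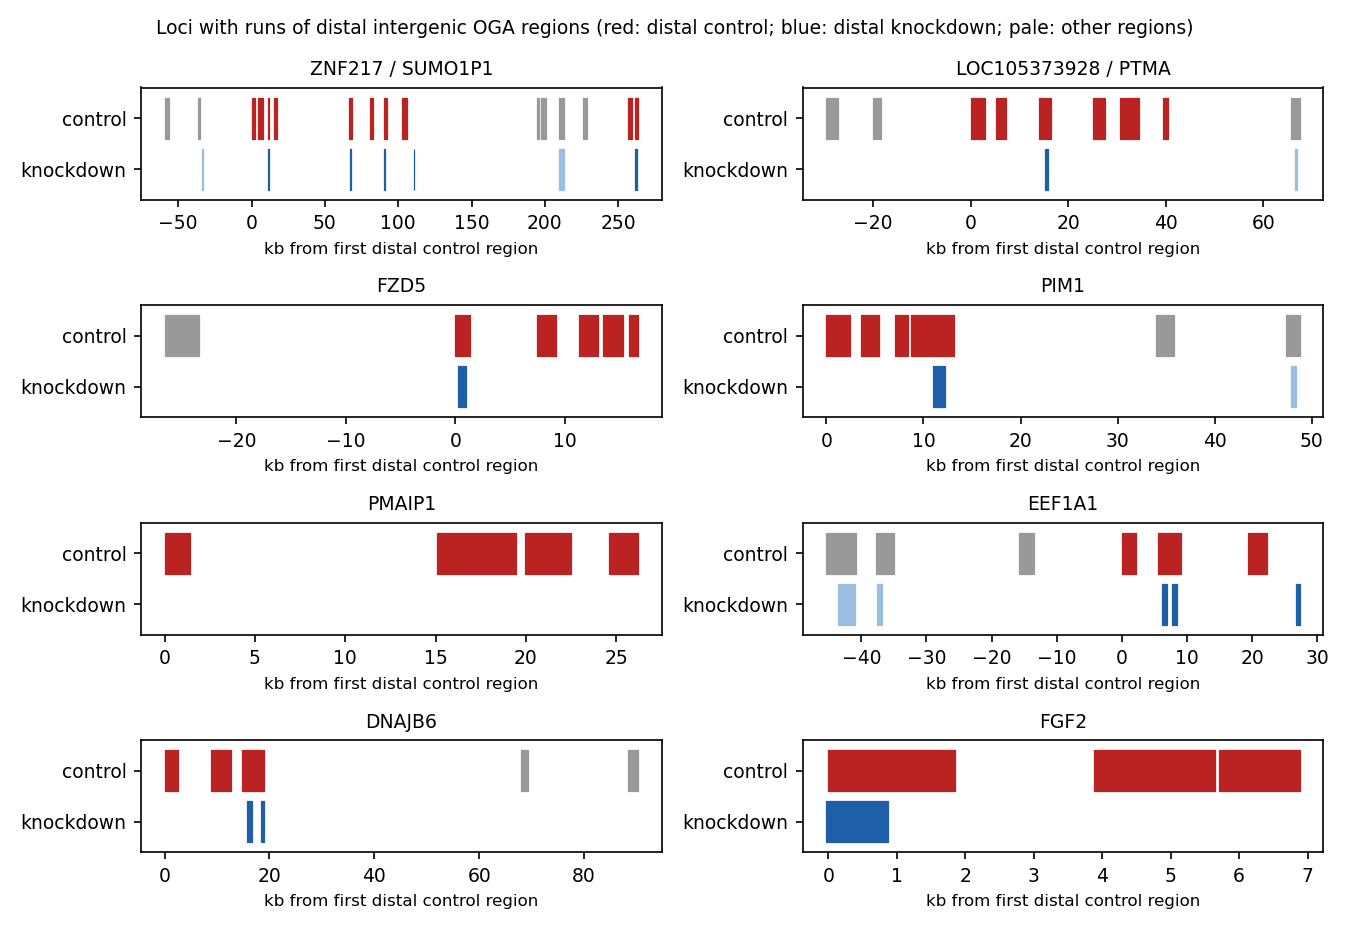
Control and knockdown OGA regions assigned to the genes of 8 loci, each drawn to scale in kb from the first distal control region of the locus (upper row control, lower row knockdown, red and dark blue for distal regions, grey and pale blue for the rest, with close neighbours merging at this scale). In each locus at least 3 distal control regions stand close together, and at FZD5 the knockdown list holds 1 region, over the distal region nearest to the start site.

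Distal regions were assigned to 511 genes by the nearest start site, which is no evidence of a regulatory link. Of these genes 431 had 1 distal region, 59 had 2 and 21 had 3 or more. By RefSeq gene type, for 586 of 623 regions with a matched gene, 288 were assigned to protein-coding genes (46.2% of 623, 42.3 to 50.2), against 57.3% (54.5 to 60.1) of intergenic regions within 25 kb and 79.4% of promoter regions. Long noncoding RNA genes took 191 (30.7%, 27.2 to 34.4), against 19.5% (17.3 to 21.8) and 10.8%. Pseudogenes took 86 (13.8%), against 16.2% and 2.78%, and microRNA genes 15 (2.41%). A control promoter region occurred for 80 of the 511 genes (15.7%), against 280 of 990 genes of the intergenic regions within 25 kb (28.3%).

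Genes that the authors' deposited table assigns to the pathway of signals regulating pluripotency of stem cells had 15 distal regions (2.41%, 1.46 to 3.93), against 1.21% (1.01 to 1.46) of all control regions. The 15 belonged to 8 genes, and FZD5 gave 5 of them. Without FZD5 there were 10 of 618 (1.62%), and by gene 8 of 511 (1.57%) against 55 of 6510 (0.845%). Among the other genes were FGF2, a growth factor of primed stem cell culture, with 3 regions, the homeobox gene ESX1 with 2, and the Wnt receptor genes FZD7 and FZD9, the repressor gene REST and SOX2 with 1 each. Genes of the Wnt pathway had 13 distal regions (2.09%, 1.22 to 3.54), against 1.15% of all, and genes of the Hippo pathway 11 (1.77%, 0.989 to 3.13), against 1.04%. By gene each was 6 of 511 (1.17%), against 0.814% for Wnt and 0.799% for Hippo. Genes of a named transcription factor family had 26 (4.17%, 2.86 to 6.04), against 2.68% (2.37 to 3.04). By gene these were 16 of 511 (3.13%) against 2.21%, so repeated regions at ZNF217 (6) and TFAP2C (3) raised the regional share. The terms were chosen after their counts had been seen.

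Some pluripotency genes had a distal region. Of 14 core pluripotency genes 4 had one, with 5 regions (0.803% of distal regions, against 0.290% of all control regions for the same genes), although all 14 had some control region. By gene it was 4 of 511, against 14 of 6510, and no interval was computed for these small counts. ZFP42, also known as REX1, had a region of 2223 bp at 35056 bp on chromosome 4 (188030827 to 188033049). SOX2, which encodes a partner of OCT4, had one of 1657 bp at 69206 bp on chromosome 3 (181781131 to 181782787), besides a promoter region of 1356 bp. PRDM14, a zinc finger repressor of differentiation genes, had 2, of 1515 and 1068 bp.

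Of 29 naive genes, 17 of which had any control region, 2 had distal regions, PRDM14 and TFAP2C, with 5 regions (0.803% of distal regions, against 0.490% of all control regions for the list). TFAP2C, an AP-2 family factor of naive and trophoblast cells, had 3 on chromosome 20 (2697, 1129 and 2514 bp) at 34714 to 46572 bp downstream, and was also the 1 gene of 25 in the trophectoderm and trophoblast list (0.482% against 0.212%). Of 21 primed genes 3 had them (0.803% against 0.301%), among them FGF2 with 3 regions (1846, 1766 and 1178 bp) and the ETS factor gene ETV4 with 1 of 1833 bp. By gene the naive list had 2 of 511, against 17 of 6510. The primed list had 3 of 511 against 10 of 6510, and the trophectoderm and trophoblast list 1 of 511 against 8 of 6510. No interval was computed for shares of so few regions. The germ layer (24 genes), 8-cell-like (19) and pluripotency long noncoding RNA (26) lists had 0 genes with a distal region, but only 4, 1 and 6 of their genes had any control region, with 5, 3 and 6 regions.

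After OGA knockdown the distal regions were in the list about as often as control regions elsewhere. A knockdown region overlapped 65 of 623 by at least 1 bp (10.4%, 8.27 to 13.1), and over all control regions it was 901 of 8977, or 10.0%. The share was 9.44% (7.90 to 11.2) for intergenic regions within 25 kb, a difference of 0.998 percentage points (-1.81 to 4.06), and 10.1% (9.26 to 11.1) for promoter regions, a difference of 0.296 points (-2.07 to 3.08). These intervals do not show that the classes are alike. Across 5 width classes of control regions the share of distal regions overlapped was 8.59%, 7.14%, 8.46%, 15.0% and 12.7% from narrow to wide, against 7.42%, 7.85%, 8.33%, 10.8% and 15.6% of the other regions, and each interval for the distal regions held the share of the others.

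**Figure D3:**
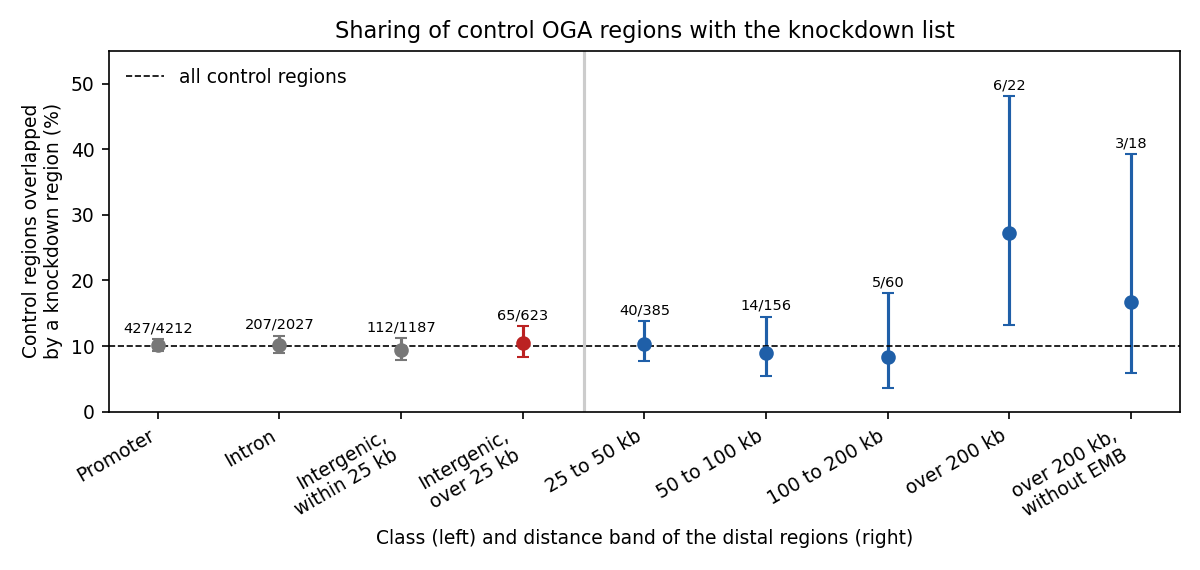
Share of control OGA regions overlapped by at least 1 bp by a knockdown region (points, percent, with Wilson 95% intervals and counts), by class on the left and by distance to the start site for the distal regions on the right. The 4 classes drawn (promoter, intron and intergenic within and beyond 25 kb) lie between 9.44% and 10.4%, next to the dashed line for all control regions (10.0%), while smaller classes not drawn ranged from 6 of 120 (downstream) to 58 of 468 (exon, 12.4%), and the band beyond 200 kb stands at 27.3% with EMB and at 16.7% without.

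By distance the share was 10.4% between 25 and 50 kb, 8.97% between 50 and 100 kb, 8.33% between 100 and 200 kb and 27.3% (13.2 to 48.2) beyond 200 kb. The last band held 6 overlapped regions of 22, of which 3 were assigned to EMB; without EMB it was 3 of 18 (16.7%, 5.84 to 39.2). The EMB regions of 2001, 2387 and 1272 bp were overlapped and the one of 973 bp was not. The EMB regions lie near the centromere of chromosome 5, and their mappability could not be checked, nor could that of the other regions of this band. On the X chromosome 1 of 38 distal regions was overlapped, at XIAP, an inhibitor of apoptosis (2.63%, 0.466 to 13.5), against 63 of 579 on autosomes (10.9%), and the interval of the difference held 0 (-11.8 to 2.85 points). Over all control regions of X the share was 5.83%, against 10.1% on autosomes (difference -4.29 points, -6.70 to -0.518).

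Distal regions with another distal region within 20 kb were overlapped more often than those without one. The shares were 31 of 195 (15.9%, 11.4 to 21.7) and 34 of 428 (7.94%, 5.74 to 10.9), a difference of 7.95 percentage points (2.60 to 14.1). This interval treats the 195 regions as independent although they lay in 78 runs, so it may be too narrow. Regions with such a neighbour were wider, with medians of 1735 and 1529 bp. Among regions of the median control width or wider the shares were 17.5% and 8.76%, and among narrower ones 13.3% and 7.26%. Without EMB the share in runs was 14.7%. Control regions of the other classes also differed, with 11.8% overlapped where any control region lay within 20 kb and 8.16% where none did (difference 3.64 points, 2.36 to 4.92). By the same measure the shares for distal regions were 15.7% and 7.22%, and whether these gaps differ in size was not tested. Of the 78 runs 26 had an overlapped region. Of the 26 runs of 3 or more 14 had none, and the largest number was 2.

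Knockdown regions were narrower over the whole list, with a median width of 727 bp against 1577 bp for all control regions. At most overlapped distal sites the knockdown region was a narrower interval inside the control region. Of 65 overlapped distal regions 50 contained their knockdown regions whole. That share is not given here for all overlapped control regions, so it does not set distal regions apart. The shared part covered a median of 53.0% of the distal control region (14.04 to 98.4), against a median of 38.0% for 427 promoter regions. The overlapped distal regions had a median width of 1808 bp (1409 to 2192), against 1570 bp (1242 to 2063) for the 558 others.

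**Figure D4:**
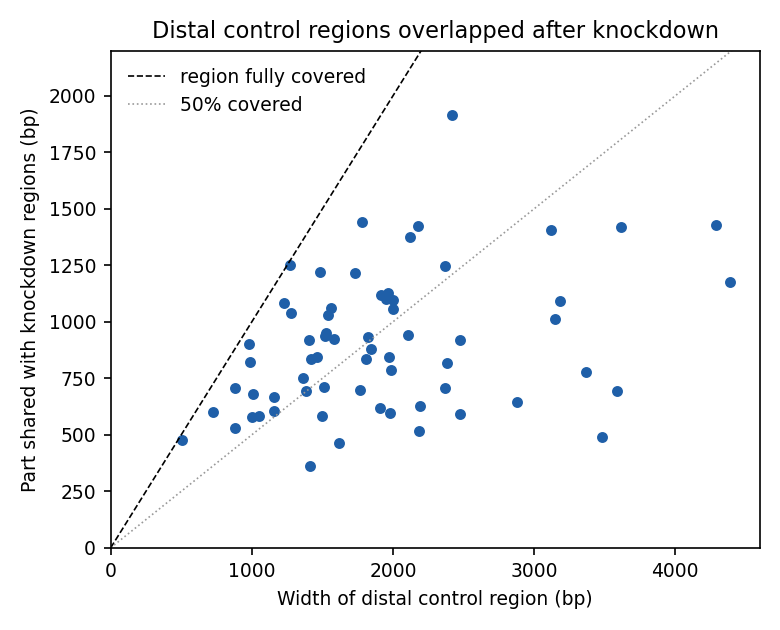
Width of each of the 65 distal control regions overlapped by a knockdown region (horizontal axis, bp) and the number of its bases shared with knockdown regions (vertical axis, bp), with lines for full and for 50% cover. All points lie below full cover, and the median cover is 53.0%.

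The 10 widest overlapped distal regions included those of PIM1 and DNAJB6 named above, with 1 and 2 knockdown regions. The EEF1A1 region of 3615 bp held 2 knockdown regions, of 704 and 718 bp, and a knockdown region of 753 bp also lay over the EEF1A1 start site, the gene whose promoter is printed above. REST, which encodes a repressor of neuronal genes, had a distal region of 3482 bp on chromosome 4 (56873589 to 56877070), of which a knockdown region of 489 bp covered 14.04%. REST and EEF1A1 were the 2 genes of the 511 with both an overlapped distal region and a promoter region in the knockdown list. PODXL, whose sialomucin product carries antigens of pluripotent cells, had one of 3370 bp on chromosome 7 (131603722 to 131607091). The others were 2 regions of LOC112268175 (3589 and 2878 bp) and regions of MCHR1 (3183 bp), ATP5MC1P3 (3147 bp) and RPL29P9 (3119 bp).

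Among the named loci, FZD5 kept the region nearest to its start, overlapped by a knockdown region of 696 bp, and had 0 knockdown promoter regions. In the PTMA run the 2479 bp region on the LOC105373928 side was overlapped and the 3 on the PTMA side were not. The control promoter regions of PTMA and of ATF7IP were each overlapped by a knockdown region. FGF2 kept the 1846 bp region farthest from its start. ZNF217 and SUMO1P1 kept 4 of 10 distal regions and had 8 knockdown regions in all, 6 of which overlapped a control region. PMAIP1, ATF7IP and TFAP2C kept 0 of 4, 0 of 3 and 0 of 3, and the single distal regions of SOX2, ZFP42 and ETV4 and both of PRDM14 were not overlapped. Of all control regions 901 of 8977 (10.0%) were overlapped, so a count of 0 among so few regions does not set a locus apart.

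A region absent from the knockdown list may still have had a peak in 1 knockdown library. At most 9.53% and 9.72% of the numbered peaks of knockdown replicates 1 and 2 were part of a listed region. In control replicates 1 and 2 it was at most 38.5% and 32.5%. Peak numbers rise along each chromosome, so the numbers skipped between the nearest listed knockdown regions on either side count the unlisted peaks there. For 522 distal regions with such neighbours and no overlap, the median was 20.5 unlisted peaks in knockdown replicate 1 and 19 in replicate 2. Replicate 1 skipped none at 5 of these regions and replicate 2 none at 8, but there was no region at which neither library skipped any (0 of 522, Wilson upper bound 0.731%). The lists therefore cannot show for any of the 522 that both knockdown libraries lacked a peak. Among all control regions with such neighbours and no overlap, neither library skipped any at 33 of 7642 (0.432%). Their medians were 12 and 11 unlisted peaks in replicates 1 and 2. The 0 of 522 thus does not set distal regions apart.

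The knockdown list had 100 distal regions of its own by the same rule, 7.496% of 1334 (6.202 to 9.03), against 6.94% in control, a difference of 0.556 percentage points (-0.848 to 2.18). Their median width was 814 bp. A control region overlapped 76 of them (76.0%, 66.8 to 83.3), and over all knockdown regions it was 69.0%. Intergenic knockdown regions within 25 kb overlapped control in 115 of 157 cases (73.2%, 65.8 to 79.6), near the distal share. Promoter regions of the knockdown list did so in 80.2% of cases and intronic ones in 53.8%. The distal share exceeded the intronic one by 22.2 points (11.9 to 30.9), and its difference from promoters was -4.23 points (-13.999 to 3.93). Of the 76, 67 overlapped a distal control region and 9 an intergenic one within 25 kb.

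The 24 distal knockdown regions without a control overlap were narrower, with a median of 674 bp (530 to 775), against 844 bp (670 to 1064) for the 76. The same contrast is not given here for knockdown regions of other classes, so it is not shown to be particular to distal ones. The widest of the 24 lay 226444 bp from the start of the ephrin gene EFNA5 on chromosome 5 (107266652 to 107267677, 1026 bp). ARID1B, a subunit gene of the BAF chromatin remodelling complex, followed with 893 bp at -55122 bp, then LINC01901 (878 bp) and LOC389765 (872 bp). The fifth was assigned to DPPA4, a gene active in pluripotent cells, with 859 bp on chromosome 3 (109365270 to 109366128), at -25635 bp from its start and 7356 bp from the nearest control region. A further knockdown region of DPPA4, at -16165 bp, overlapped a control region.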

How the data were processed

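OGA CUT&Tag was deposited as 1 annotated list of regions per group, 2 lists for 4 libraries. Per the submitters' processing notes the build was GRCh38.p13 and the tools, whose roles are not stated, were SEACR 1.3, Bowtie2 2.3.4.3, edgeR, DESeq2 and ChIPseeker 1.12.1. The sources used here do not state the peak threshold or the antibody control. Per the file headers the deposited lists give position, width and distance to a start site in base pairs, annotation, gene and the numbered peaks of both replicates. A repeated control line was used once (8978 lines, 8977 regions).

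A shared base (1 bp or more) counted as overlap. Shares carry Wilson and differences Newcombe 95% intervals. Runs joined distal regions at most 20 kb apart. Gene types and promoters came from RefSeq tables of GRCh38.p14 by symbol or synonym (480 of 511 genes typed, 274 with a promoter). The distal regions, gene lists and tests were chosen with earlier results of these data known. The naming rule took the 10 widest distal regions, the 10 widest overlapped, the 5 farthest, 3 on each side of the limit, the genes and runs with most distal regions, list members, and the 5 widest distal knockdown regions without overlap; X-linked, pathway and neighbouring genes were named after their values were seen, and 1 gene under the rule is not reported here. On simulated regions, 300 of 300 planted overlaps among 8977 regions and 100 of 100 planted runs were found. Python 3.11.15, pandas 2.3.3, statsmodels 0.14.6 and matplotlib 3.10.9 were used.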

Additional observations from a re-analysis of the deposited data

How the results depend on the processing

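With primary chromosomes only, every share and the median width stayed within the interval of the reported value, as they did with regions of at least 500 bp where that was tried. The share of distal control regions overlapped also stayed within it at a 50 kb limit, under overlap of 50% of the shorter region, with centres within 500 bp, with the wider control regions (the median or more), without EMB and with each run counted once; at a limit of 100 kb it was 13.4%. At 100 kb the median width was 1532 bp. The distal share of the knockdown list was 3.00% at 50 kb and 1.27% at 100 kb. The share of distal knockdown regions overlapping control was 62.5% at 50 kb, 64.7% at 100 kb, 60.0% by centres and 47.0% with the wider control regions. Distal regions within 50 kb of another were 29.0% at 50 kb and 26.8% at 100 kb, and 31.3% lay within 20 kb. Protein-coding genes took 37.0% at 50 kb and 34.1% at 100 kb. Fewer regions enter at a larger limit by construction; other causes were not tested. Alternatives without EMB, with runs counted once and on peaks and gene types were chosen after seeing the data. No paired analysis was possible because each deposited list pools its libraries, so leaving out a replicate and a replicate block were not run. Without depth, a region missing from a list is not shown to be absent.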
